A study of Rattus norvegicus with 30 samples.

Results

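Expression of 10 genes that mark type 1 alveolar cells was examined in CD31-positive rat lung cells after sham or Glenn surgery. The genes were Ager (ENSRNOG00000000439), Hopx (ENSRNOG00000024689), Aqp5 (ENSRNOG00000051970), Cldn18 (ENSRNOG00000030386), Akap5 (ENSRNOG00000006410), Gprc5a (ENSRNOG00000008412), Scnn1g (ENSRNOG00000017842), Emp2 (ENSRNOG00000002664), Lmo7 (ENSRNOG00000060775) and Rtkn2 (ENSRNOG00000067849), taken by symbol from a table of 30562 gene rows. These symbols matched 11 rows, of which 10 were among the 16171 genes abundant enough to test. The row left out was a further Rtkn2 identifier (ENSRNOG00000000636) with counts in 2 of the 30 libraries. All animals were wild-type rats, and their lung cells were collected 3 weeks after the operation by selection with microbeads for CD31, which endothelial cells carry on their surface. The Glenn operation sends blood of the superior vena cava directly into the pulmonary circulation, which then lacks blood freshly drained from the liver. The 6 groups of libraries were defined by surgery (sham or Glenn) and by diet, which held a control, deficient or excess amount of vitamin A, with 5 libraries per group and therefore 15 per operation. The labels do not say whether each library came from a separate animal, and p-values then measure only the spread between these libraries.

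Type 1 alveolar cells are the thin, flat epithelial cells that cover most of the gas-exchange surface of the lung. They lie against the capillary endothelium across a shared basement membrane, they can be renewed from the cuboidal type 2 cells that secrete surfactant, and they carry channels and junctions that keep the airspace dry. Vitamin A is converted to retinoic acid, which acts through nuclear receptors and is known for its part in the growth of alveoli.

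The promoters of 4 members are shown because these members differ in their response to surgery described below: Ager, Aqp5 and Scnn1g rose and Hopx fell. Each is the 250 bases before the start of the gene, 5′ to 3′ on the strand of the gene, from RefSeq on build GRCr8. Capitals mark a match, on either strand, to 1 of 4 short motifs. TEAD factors bind around GGAATG. The lung transcription factor NKX2-1 binds around CTCAAG. Half-sites of the form AGGTCA are bound by retinoid and other nuclear receptors, and the GATA family of factors binds around AGATAA.
Ager (chr20:4155686-4155935, minus strand): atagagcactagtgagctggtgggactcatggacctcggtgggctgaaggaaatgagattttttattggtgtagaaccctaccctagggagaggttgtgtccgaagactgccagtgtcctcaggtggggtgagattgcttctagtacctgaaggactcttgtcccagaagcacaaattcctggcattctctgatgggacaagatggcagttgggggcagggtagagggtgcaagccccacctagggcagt
Aqp5 (chr7:132601278-132601527, plus strand): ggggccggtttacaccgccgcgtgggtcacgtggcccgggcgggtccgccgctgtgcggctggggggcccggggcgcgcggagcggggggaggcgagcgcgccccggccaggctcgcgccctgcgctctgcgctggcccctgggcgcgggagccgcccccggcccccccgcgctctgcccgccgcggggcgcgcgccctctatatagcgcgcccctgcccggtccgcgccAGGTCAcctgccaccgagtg
Scnn1g (chr1:185735975-185736224, plus strand): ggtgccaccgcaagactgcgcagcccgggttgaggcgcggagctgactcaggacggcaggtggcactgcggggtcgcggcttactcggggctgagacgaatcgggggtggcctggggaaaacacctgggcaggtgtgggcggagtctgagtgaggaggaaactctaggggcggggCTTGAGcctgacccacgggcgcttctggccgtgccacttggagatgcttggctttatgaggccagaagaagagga
Hopx (chr14:31429163-31429412, plus strand): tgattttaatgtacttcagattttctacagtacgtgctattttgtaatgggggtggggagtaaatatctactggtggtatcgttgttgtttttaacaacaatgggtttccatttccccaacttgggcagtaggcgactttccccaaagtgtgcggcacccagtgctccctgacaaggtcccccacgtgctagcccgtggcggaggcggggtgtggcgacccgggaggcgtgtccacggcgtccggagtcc

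Of the 10 members, 9 had an entry in the RefSeq promoter table, and Gprc5a had none. AGGTCA was found in 1 of the 9 (Aqp5, first base 20 bases before the start) and CTCAAG in 2, Akap5 (236 bases before the start) and Scnn1g, where it lies on the opposite strand as CTTGAG 75 bases before the start. GGAATG and AGATAA were found in 0 of the 9. Among 33469 promoter windows of the same length, 14.1% held AGGTCA, 13.3% CTCAAG, 12.1% GGAATG and 10.3% AGATAA. A match is a description of the letters only.

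Transcripts of all 10 members were present in every library, and the lowest estimated count was 259 (Scnn1g). Levels are given as CPM, estimated counts per 1000000 of the library's counts after scaling of library totals. Together the members made up 0.149% to 0.246% of the counts after sham and 0.152% to 0.357% after Glenn surgery, with a summed level of 1488 to 2456 CPM (median 1912) and 1516 to 3567 CPM (median 2402). Total counts per library ranged from 22.03 to 77.65, with a median of 39.97, in units of 1000000. The endothelial marker Pecam1 stood at 971 to 1731 CPM in sham libraries and 863 to 1404 CPM in Glenn libraries, and the leukocyte gene Ptprc at 0.569 to 18.9 and 0.890 to 8.69 CPM. In such bulk libraries, a change in the number of cells of a type and a change in RNA per cell cannot be told apart.

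Averaged over the 3 diets, 7 of the 10 members were higher after Glenn surgery, 2 were lower and Lmo7 did not pass the test. Members that rose did so by 1.35-fold to 2.10-fold, whereas Hopx and Emp2 fell by 1.28-fold and 1.23-fold. Across all genes tested, 48.2% passed in this comparison, 23.4% higher and 24.7% lower. The median log2 change was 0.74 over the members and -0.01 over all genes tested. A change here is an adjusted p under 0.05 in the quasi-likelihood test of edgeR with Benjamini-Hochberg adjustment over all 16171 genes. For every member the 15 sham and 15 Glenn libraries overlapped, and groups without overlap were seen for 5.83% of all genes.

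Among the channel genes, Aqp5, the apical water channel of type 1 cells, ranged from 46.7 to 120 CPM in sham libraries (median 71.0) and from 58.4 to 221 CPM in Glenn libraries (median 135). Its mean rose from 73.2 ± 19.9 to 128 ± 41.3 CPM (SD, n = 15 each), corresponding to a log2 difference of 0.75 (SE 0.15, edgeR adjusted p 0.000136). Scnn1g encodes the gamma subunit of the epithelial sodium channel, through which alveolar fluid is cleared. It ranged from 6.36 to 20.3 CPM in sham libraries (median 10.5) and from 13.9 to 38.8 CPM in Glenn libraries (median 23.3). Its mean rose from 11.8 ± 4.27 to 25.4 ± 7.68 CPM (SD, n = 15 each), or 1.06 on the log2 scale (SE 0.18, edgeR adjusted p 1.7e-05). The other subunits of the channel, not members but listed with them, also rose: Scnn1a by 0.75 (SE 0.13, edgeR adjusted p 2.11e-05) and Scnn1b by 0.79 (SE 0.17, edgeR adjusted p 0.000393).

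Signalling members rose as well. Ager, the receptor for advanced glycation end products and an abundant protein of the basal type 1 cell membrane, ranged from 280 to 493 CPM in sham libraries (median 364) and from 343 to 1021 CPM in Glenn libraries (median 634). Its log2 change was 0.82 (SE 0.12, edgeR adjusted p 2.38e-06), and 12 of the 15 Glenn libraries lay above the highest sham library. Gprc5a, an orphan G protein-coupled receptor first described as induced by retinoic acid, went from 149 ± 18.8 to 256 ± 59.5 CPM (SD, n = 15 each). That is 0.72 on the log2 scale (SE 0.09, edgeR adjusted p 1.32e-07), with 13 of 15 Glenn libraries above every sham library. Rtkn2, a member of the rhotekin family, had the largest change of the 10, 1.07 (SE 0.19, edgeR adjusted p 4.72e-05), from 32.8 ± 10.2 to 71.8 ± 29.99 CPM (SD, n = 15 each). Akap5, a scaffold that anchors protein kinase A at the membrane, rose by 0.91 (SE 0.19, edgeR adjusted p 0.000281), from 61.8 ± 19.02 to 122 ± 48.0 CPM (SD, n = 15 each).

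The junction and membrane genes differed among themselves. Cldn18, a claudin of alveolar tight junctions, rose from 97.8 ± 16.5 to 135 ± 28.0 CPM (SD, n = 15 each), corresponding to a log2 difference of 0.43 (SE 0.09, edgeR adjusted p 0.000135). Lmo7, a LIM-domain protein of cell junctions, had means of 230 ± 31.7 and 263 ± 53.2 CPM (SD, n = 15 each) and a log2 difference of 0.15 that did not pass (SE 0.09, edgeR adjusted p 0.166). Emp2, a tetraspan protein of the plasma membrane, fell by 0.30 on the log2 scale (SE 0.09, edgeR adjusted p 0.00587), from 672 ± 138 to 570.0 ± 117 CPM (SD, n = 15 each). Emp2 ranged from 495 to 1017 CPM in sham libraries and from 378 to 795 CPM in Glenn libraries. Of the 15 Glenn libraries, 4 were below every sham library.

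Hopx, a small homeodomain protein that acts in transcription without binding DNA, ranged from 165 to 335 CPM in sham libraries (median 243) and from 126 to 263 CPM in Glenn libraries (median 192). It fell by 0.36 on the log2 scale (SE 0.08, edgeR adjusted p 0.000852). The rise of Cldn18 and the falls of Hopx and Emp2 were not past the threshold among the 17 libraries with at most 100 CPM of RT1-CE16, a class I histocompatibility gene whose level splits the libraries, where the changes were 0.27, -0.28 and -0.12 (edgeR adjusted p 0.0866, 0.133 and 0.447). Nor was the fall of Emp2 without a term for the library series (-0.24) or in series A alone (-0.24). Library series are the 2 separate ranges of library numbers in the labels, 22 libraries in series A and 8 in series B, and what they stand for is not stated. All 8 series B libraries were above 100 CPM of RT1-CE16, while every series A library on the deficient and excess diets was at or below it.

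**Figure D1:**
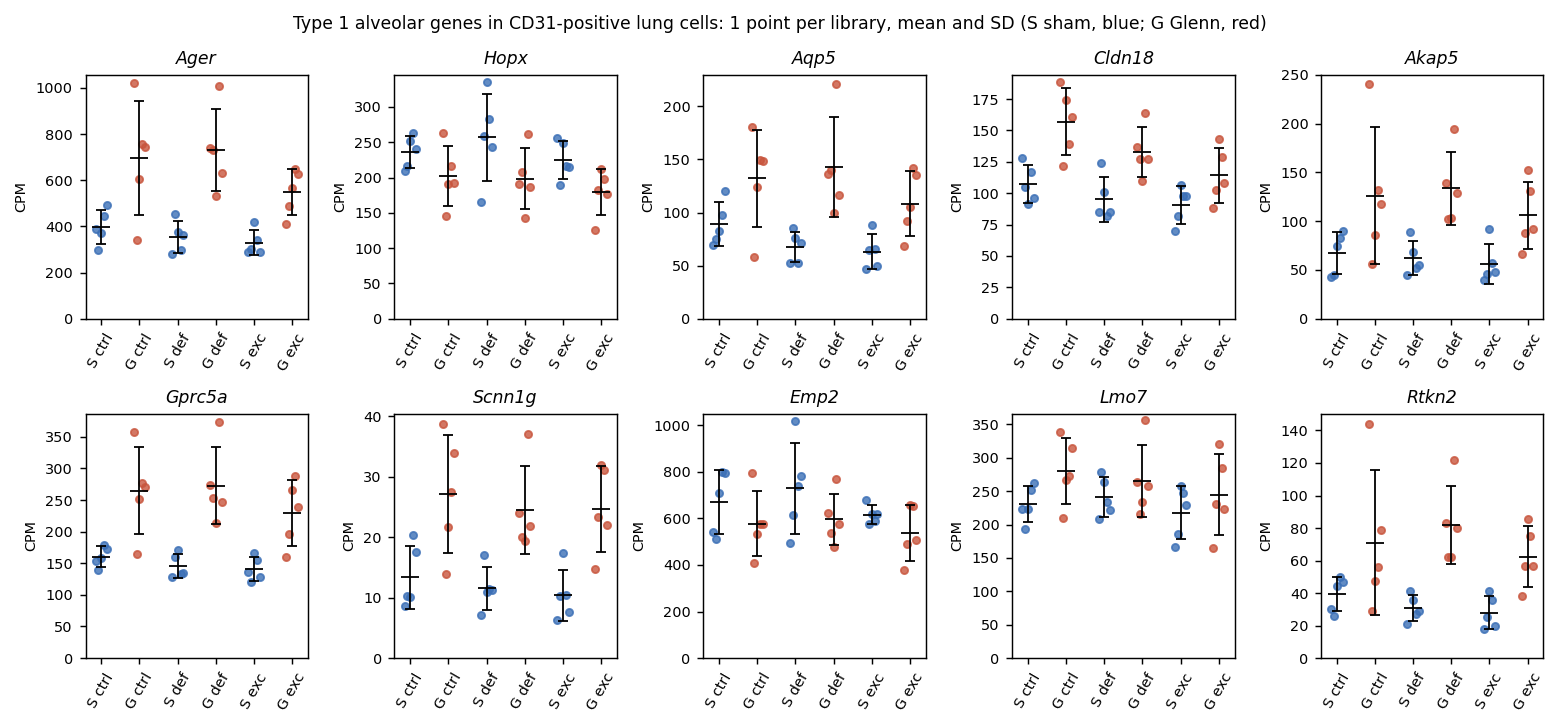
CPM of each of the 10 type 1 alveolar genes (vertical axes, from 0) in the 6 groups, with 1 point per library and bars for the mean and SD of 5 libraries (S sham, G Glenn; control, deficient and excess vitamin A). Ager, Gprc5a, Aqp5, Akap5, Scnn1g and Rtkn2 separate without overlap on the deficient diet, while Glenn control replicate 2 lies among the sham libraries for Ager and Gprc5a.

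Within the control diet, 5 members rose (Ager, Cldn18, Akap5, Gprc5a and Scnn1g) and 0 fell, against 24.9% of all genes passing (11.8% higher, 13.1% lower). Ager stood at 387, 297, 370, 444 and 493 CPM in sham replicates 1 to 5 and at 1021, 343, 607, 759 and 743 CPM in Glenn replicates 1 to 5. All Glenn libraries other than replicate 2 were above every sham library, and the log2 change was 0.80 (SE 0.20, edgeR adjusted p 0.00427). Rtkn2 showed a wider spread after Glenn surgery, with 144, 29.0, 47.3, 56.2 and 78.8 CPM against 30.4, 26.0, 44.1, 50.03 and 46.6 CPM in sham libraries. Its change of 0.85 (SE 0.32) did not pass (edgeR adjusted p 0.0537). Rtkn2 passed without Glenn replicate 2, 3 or 4 (1.05, 0.96 and 0.94, edgeR adjusted p 0.0114, 0.0401 and 0.0467). Without Glenn replicate 1 its change was 0.42 (edgeR adjusted p 0.317). The call for Akap5 (0.91, SE 0.32, edgeR adjusted p 0.0363) also rested on Glenn replicate 1, without which the change was 0.54 (edgeR adjusted p 0.197). It was likewise lost without Glenn replicate 4 or without sham replicate 1, 2 or 3, with changes of 0.79 to 0.97. Hopx and Emp2 had changes of -0.23 and -0.22 that did not pass (edgeR adjusted p 0.278 and 0.312). Nor did Aqp5 (0.57, edgeR adjusted p 0.0953), which passed without Glenn replicate 2 (0.76, edgeR adjusted p 0.0114).

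On the vitamin A-deficient diet, 7 members rose and 0 fell, with 27.4% of all genes passing (13.7% in each direction). The groups did not overlap for 6 of them (Ager, Aqp5, Akap5, Gprc5a, Scnn1g and Rtkn2), as was the case for 19.6% of all genes. Ager was at 280, 454, 376, 300 and 364 CPM in sham libraries and at 739, 733, 534, 1010 and 634 CPM in Glenn libraries, a log2 difference of 1.07 (SE 0.21, edgeR adjusted p 0.000249). Rtkn2 was at 21.2, 41.1, 35.7, 27.0 and 29.2 CPM in sham libraries and at 83.3, 62.0, 62.3, 122 and 80.2 CPM in Glenn libraries. Every Glenn library thus exceeded all 5 sham libraries, and the change of 1.45 (SE 0.33, edgeR adjusted p 0.00141) was the largest of any member on any diet. Aqp5 rose by 1.12 (SE 0.25, edgeR adjusted p 0.00123), from 52.9, 85.5, 75.8, 52.6 and 71.0 CPM to 136, 140, 99.4, 221 and 117 CPM. Cldn18, the seventh, rose by 0.50 with overlapping groups (SE 0.15, edgeR adjusted p 0.0107). Without Glenn replicate 4 the change of Cldn18 was 0.42 and no longer passed (edgeR adjusted p 0.051).

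These 2 groups held libraries of both series, and the changes can be set out within each. In series B (3 sham and 2 Glenn libraries) 7 members passed, with a median log2 change of 1.17 and 1.25 for Ager. Glenn replicate 4, the highest of its group for all 10 members, was among these 2 Glenn libraries. In series A (2 sham and 3 Glenn libraries) 1 member passed, Gprc5a with 0.78 (edgeR adjusted p 0.0169). The median there was 0.78, with 0.87 for Ager (edgeR adjusted p 0.0741). Over the whole table, more genes passed in series A than in series B, and fewer in each than in the full fit (counts in the last paragraph).

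**Figure D2:**
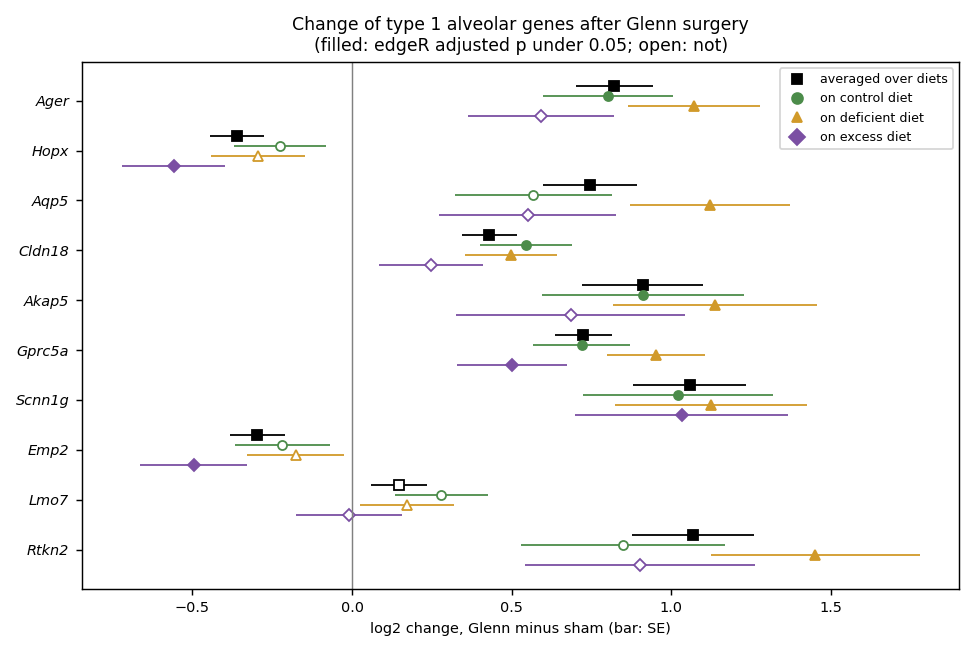
Log2 change of each type 1 alveolar gene, Glenn minus sham (horizontal axis, bars SE), on each diet and averaged over diets, filled where the edgeR adjusted p was under 0.05. Hopx and Emp2 lie left of 0 on every diet, Lmo7 lies between -0.01 and 0.28, and the other 7 lie right of 0, from 0.25 for Cldn18 on the excess diet to 1.45 for Rtkn2 on the deficient diet.

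With excess vitamin A, 2 members rose (Gprc5a and Scnn1g) and 2 fell (Hopx and Emp2), with 21.9% of all genes passing (11.6% higher, 10.4% lower). Gprc5a stood at 136, 120, 166, 155 and 129 CPM in sham libraries and at 160, 197, 265, 288 and 238 CPM in Glenn libraries, and 4 of the 5 Glenn libraries were above every sham library. Its log2 change was 0.50 (SE 0.17, edgeR adjusted p 0.035). Scnn1g rose by 1.03 (SE 0.33, edgeR adjusted p 0.0263), from 6.36, 10.2, 17.3, 10.5 and 7.58 CPM to 14.7, 23.3, 32.0, 31.2 and 21.98 CPM. Hopx fell by 0.56 (SE 0.16, edgeR adjusted p 0.0127), from 255, 189, 249, 217 and 216 CPM to 126, 182, 212, 198 and 177 CPM. Emp2 fell by 0.50 (SE 0.17, edgeR adjusted p 0.0323), from 616 ± 40.1 to 538 ± 119 CPM (SD, n = 5 each). For both genes the groups overlapped, and the size of the change depended on the series term: without it the change was -0.33 for Hopx (edgeR adjusted p 0.14) and -0.20 for Emp2 (edgeR adjusted p 0.449).

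All 5 sham libraries on this diet were of series A, while 3 of the 5 Glenn libraries were of series B, and the count of members depended on how that was treated. Without a series term 6 members were higher (Ager, Aqp5, Akap5, Gprc5a, Scnn1g and Rtkn2) and 0 lower, and in series A alone 0 were called in either direction. There Gprc5a changed by 0.35 (edgeR adjusted p 0.258), Scnn1g by 0.88 (edgeR adjusted p 0.181), Hopx by -0.54 (edgeR adjusted p 0.0931) and Emp2 by -0.50 (edgeR adjusted p 0.117). Gprc5a lost its call without any 1 of Glenn replicates 2, 3 and 4 or sham replicates 1, 2 and 5 (0.45 to 0.51), and Scnn1g without Glenn replicate 2 or sham replicate 1 or 5 (0.90 to 0.96). Hopx lost it without Glenn replicate 1 (-0.46), and Emp2 without Glenn replicate 1 or 5 or sham replicate 1 or 3 (-0.41 to -0.49). Between the series, the fitted difference, B minus A, was 0.13 to 0.46 on the log2 scale over the 10 members (median 0.32). Of these, 0 passed (edgeR, lowest adjusted p 0.0541, for Emp2), with 1.64% of all genes passing. At an unadjusted p under 0.05 were 4 members and 2221 of the 16171 genes. With only series A in the sham group, series and surgery cannot be fully told apart on the excess diet.

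Whether the response to surgery depended on diet was tested by the interaction of both factors. None of the members passed, in edgeR (adjusted p 0.991 to 0.999) or in DESeq2, 0 had an unadjusted p under 0.05, and 0.00618% of all genes passed in edgeR. The median change of the members was 0.64 with the control diet, 1.01 with the deficient diet and 0.53 with the excess diet, against -0.01, -0.01 and -0.02 for all genes tested. The counts of 5, 7 and 4 members past the threshold on these diets are therefore not shown to differ.

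Diet itself moved 0 members past the threshold in any of 6 comparisons in edgeR. After sham surgery, the deficient against the control diet gave a median log2 difference of -0.29, with 0% of all genes passing. At an unadjusted p under 0.05 were 1 member (Aqp5, -0.59) and 844 of the 16171 genes. Excess against control gave -0.25, with 0 members under 0.05 unadjusted and 0.241% of all genes passing. Excess against deficient gave 0.04, with 0 members and 0.0124%. These differences are fitted with the series term. For the deficient against the control diet the group means went the other way for Hopx (257 against 236 CPM), Emp2 (730 against 671 CPM) and Lmo7 (241 against 231 CPM), and the fitted differences of these genes were -0.11, -0.19 and -0.09.

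After Glenn surgery, the deficient against the control diet gave a median of -0.11, with 0 members under 0.05 unadjusted and 0.00618% of all genes passing. Here too some group means went the other way: Ager (730 against 695 CPM), Aqp5 (143 against 132), Akap5 (134 against 126), Gprc5a (273 against 265) and Emp2 (596 against 577). With the series term, their fitted differences were -0.02 to -0.14. Excess against deficient gave a median of -0.29, with 0% of all genes passing. Unadjusted, 2 members (Ager and Gprc5a) and 837 of the 16171 genes were under 0.05. Excess against control gave -0.42 against 0.02 for all genes, with 1.47% of all genes passing after adjustment. Unadjusted, 6 members were under 0.05, as were 2254 of the 16171 genes. In the same comparison all 14 general epithelial genes were below 0 (median -0.54), with Epcam, Krt8, Krt18 and Cldn7 called lower, and so were all 5 tested mesothelial genes (median -1.01), with Lrrn4 and Upk1b called lower. Their part in the levels of the members was not tested. Cldn18 came closest, at 157 ± 26.9 CPM on the control and 114 ± 21.9 CPM on the excess diet (SD, n = 5 each), a log2 difference of -0.55 (SE 0.16, edgeR adjusted p 0.0921). DESeq2 called Cldn18 lower here (-0.55, adjusted p 0.0258) and 0 members in the other 5 comparisons, and edgeR called it without Glenn control replicate 2 (-0.62, adjusted p 0.0445) or Glenn excess replicate 3 (-0.63, adjusted p 0.0409). Gprc5a, the retinoic acid-induced receptor, had means of 161, 145 and 141 CPM in sham libraries and 265, 273 and 230 CPM in Glenn libraries on the control, deficient and excess diets.

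Libraries of 1 group moved together across the members. On the control diet, Glenn replicate 1 was the highest of its group for all 10 members and Glenn replicate 2 the lowest for all 10. Glenn replicate 4 was highest for all 10 on the deficient diet, and Glenn replicate 1 lowest for all 10 on the excess diet. By total counts in the unit given above, Glenn control replicate 2 (77.6) and Glenn excess replicate 1 (50.5) were the deepest of their groups. So were sham control replicate 2 (58.1) and sham excess replicate 1 (49.4), each with the lowest member mean of its group. On the deficient diet, sham replicate 4 (42.2) and Glenn replicate 2 (42.5) were deepest. The lowest there were sham replicate 1 (39.9) and Glenn replicate 3 (33.8). The part of depth was not tested. After each group was centred on its mean, all 45 pairs of members were positively correlated over the 30 libraries, with Pearson's r of 0.42 to 0.95 (median 0.80). These values describe libraries that share preparation, scaling and cell content. The lowest pair was Cldn18 with Emp2. Hopx and Emp2, which fell after surgery, still had an r of 0.77 and 0.78 with the mean of the other members.

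The genes most like the members in this within-group pattern were sought among 12698 genes averaging 1 CPM or more. Among the closest 8 were Arhgef26 (r 0.95), Rab11fip1 (0.94), Cyp2b1 (0.94), Flrt3 (0.94), Ndnf (0.93), Pdpn (0.93) and Krt7 (0.91), over 30 libraries. Of these, Cyp2b1, Flrt3, Ndnf, Pdpn and Krt7 were on the wider list of type 1 alveolar genes. These 7 were higher after Glenn surgery, from 0.49 on the log2 scale for Rab11fip1 (edgeR adjusted p 0.000532) to 1.26 for Ndnf (edgeR adjusted p 2.08e-07).

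**Figure D3:**
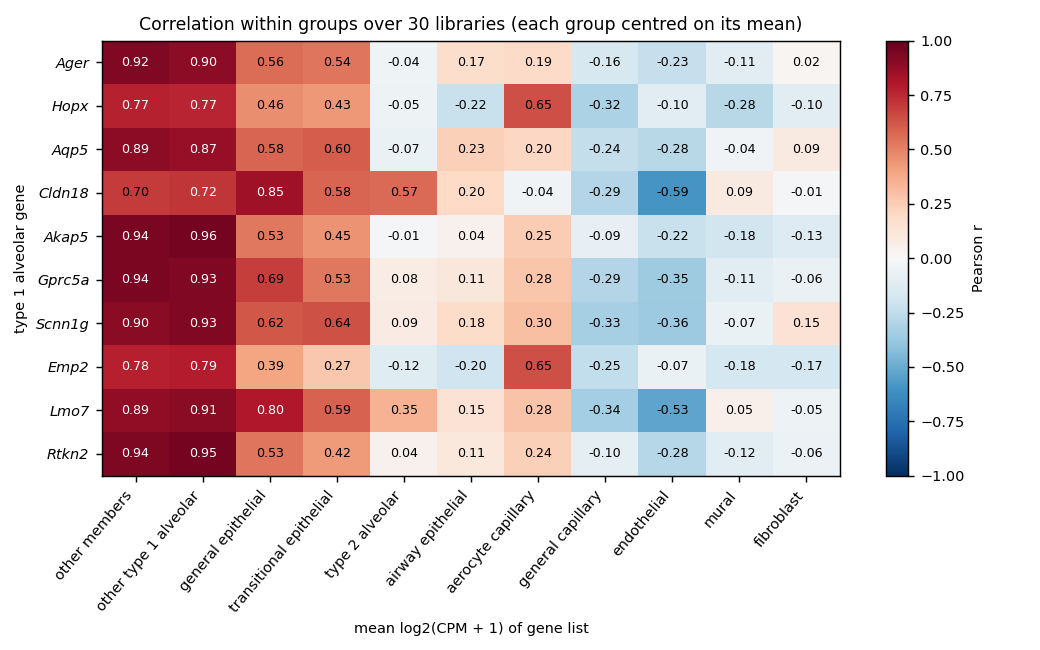
Pearson's r over 30 libraries, after centring each group on its mean, between each type 1 alveolar gene and the mean log2(CPM + 1) of the other members or of a gene list (columns). The first column runs from 0.70 for Cldn18 to 0.94 for Gprc5a, and the column for aerocyte capillary genes is highest for Hopx and Emp2 (0.65 each).

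The members differed in how they followed other cell types within groups. With the mean of the type 2 alveolar list, Cldn18 had an r of 0.57 and Lmo7 of 0.35, while the other 8 lay between -0.122 and 0.085. With the mean of the list for aerocytes, the lung capillary cells opposite type 1 cells, Hopx and Emp2 had an r of 0.65 each and the others -0.04 to 0.30. Of 7 tested aerocyte genes, 4 fell after Glenn surgery (Car4, Ednrb, Tbx2 and Prx) and 2 rose (Apln and Chst1). Their summed level was 1463 to 2350 CPM in sham libraries and 916 to 1344 CPM in Glenn libraries. Of 6 general capillary genes, 5 fell and 0 rose, while 24.7% of all genes fell and 23.4% rose. The summed level of these 6 was 6644 to 9893 CPM in sham libraries and 3061 to 6869 CPM in Glenn libraries. Endothelial genes summed to 8746 to 10890 and 6557 to 9219 CPM. With the mean of the general capillary list, Hopx and Emp2 had an r of -0.32 and -0.25 within groups. Hopx and Emp2 fell in the same comparison, and the part of aerocyte or other capillary RNA in their levels was not tested.

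A wider list of 32 other genes described in type 1 cells also held genes of both directions. Averaged over diets, 18 rose, 9 fell and 5 did not pass, with a median log2 change of 0.48. Over all genes tested, 23.4% rose and 24.7% fell. Pdpn, the mucin-like glycoprotein podoplanin of the apical type 1 cell membrane, rose from 77.0 ± 16.3 to 156 ± 41.6 CPM (SD, n = 15 each), or 0.97 on the log2 scale (SE 0.11, edgeR adjusted p 5.44e-08). The guidance ligand Sema3a rose by 1.74 (SE 0.14, edgeR adjusted p 6.81e-11) and the metalloproteinase inhibitor Timp3 by 1.21 (SE 0.09, edgeR adjusted p 2.89e-12), each with no overlap between operations. Groups without overlap were seen for 5.83% of all genes.

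Among the 9 that fell, Vegfa, the growth factor through which type 1 cells signal to capillaries, had 1096 to 1655 CPM in the sham libraries (median 1223) and 289 to 484 CPM in the Glenn libraries (median 387). The operations did not overlap, and the log2 change was -1.77 (SE 0.06, edgeR adjusted p 7.15e-19). Pxdc1 fell by 2.10 (SE 0.08, edgeR adjusted p 7.92e-18) and the membrane-bound transcription factor Myrf by 0.95 (SE 0.08, edgeR adjusted p 9.56e-11), again without overlap. Cav2, a caveolin that endothelial cells express as well, fell by 0.27 (SE 0.05, edgeR adjusted p 4.83e-05). Vegfa fell on each diet, by 1.61 (control), 1.53 (deficient) and 2.19 (excess).

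**Figure D4:**
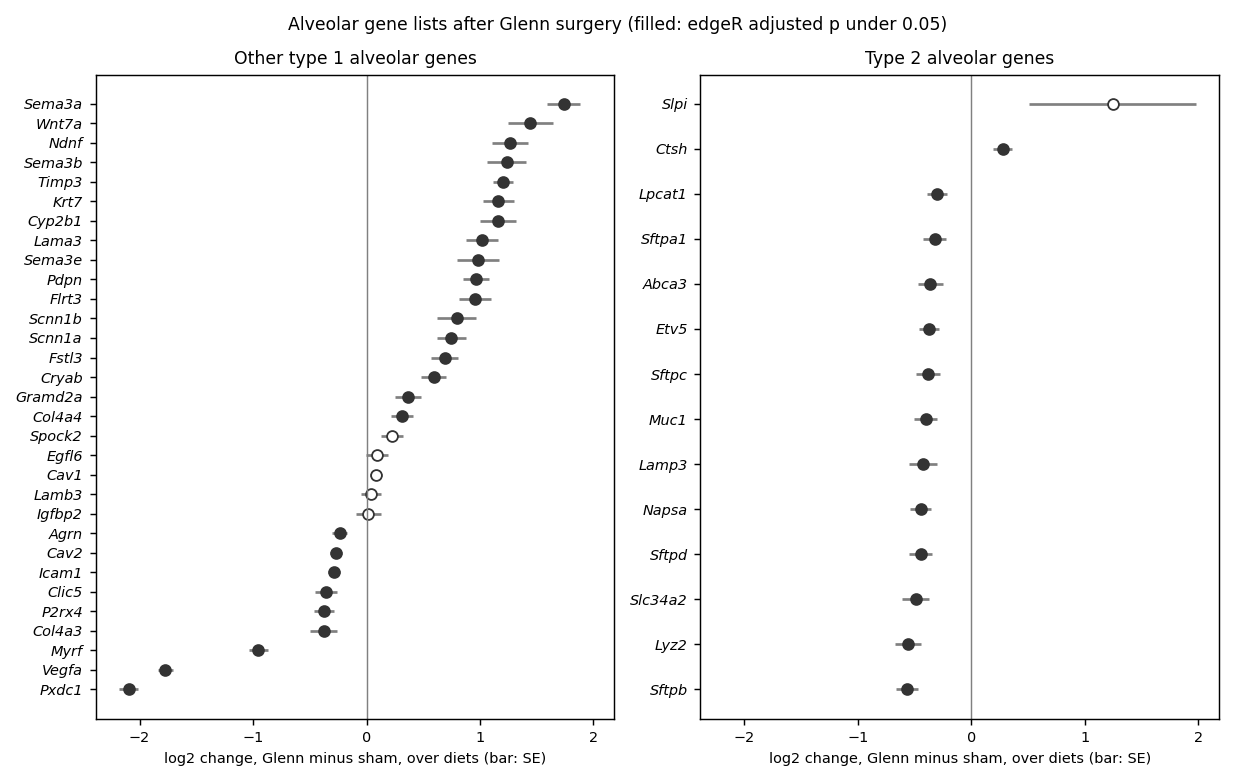
Log2 change, Glenn minus sham averaged over diets (horizontal axes, bars SE), for the genes reported here of the wider type 1 alveolar list and for type 2 alveolar genes, filled where the edgeR adjusted p was under 0.05. The type 1 list runs from -2.10 for Pxdc1 to 1.74 for Sema3a, while 12 of the 14 type 2 genes fell.

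Type 2 alveolar genes mostly fell when the diets were averaged, and the count differed by diet. Of 14 tested of 15 listed, 12 fell in the averaged comparison, Ctsh rose and Slpi did not pass, with a median log2 change of -0.39. Across all genes, 24.7% fell and 23.4% rose in that comparison. On the control diet 0 fell and Ctsh rose (median -0.11), on the deficient diet 12 fell (median -0.58) and on the excess diet Sftpb, Sftpd and Napsa fell (median -0.49), and the interaction with diet passed for 0 of the 14 (edgeR, lowest adjusted p 0.763; 1 with an unadjusted p under 0.05). Their summed level was 53080 to 91560 CPM in sham libraries and 36060 to 82120 CPM in Glenn libraries. The surfactant gene Sftpc fell by 0.38 (SE 0.11, edgeR adjusted p 0.00356), Sftpb by 0.57 (SE 0.10, edgeR adjusted p 2.17e-05), the lipid transporter Abca3 by 0.36 (SE 0.11, edgeR adjusted p 0.0089) and the lamellar body gene Lamp3 by 0.43 (SE 0.12, edgeR adjusted p 0.00506). With the mean type 2 level as a covariate, 8 members were higher and 2 lower, and Lmo7 was the member gained (0.29, edgeR adjusted p 0.0259).

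Genes shared by lung epithelial cells were measured alongside. Of 14 such genes, 2 rose (among them Krt7, which is also on the wider type 1 list) and 3 fell (Cldn3, Ehf and Grhl2), with a median of -0.06. Across all genes, 23.4% rose and 24.7% fell averaged over diets. Epcam had a change of 0.13 (SE 0.08, edgeR adjusted p 0.184), Cdh1 of 0.13 (SE 0.09, edgeR adjusted p 0.26) and the lung transcription factor gene Nkx2-1 of 0.03 (SE 0.09, edgeR adjusted p 0.821). Their summed level was 842 to 1242 CPM in sham libraries and 681 to 1508 CPM in Glenn libraries.

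Marker genes of other cell types were compared in the same way. Beside them, 23.4% of all genes rose and 24.7% fell averaged over diets. All 10 mural cell genes rose (median 1.54), with a summed level of 167 to 342 CPM in sham libraries and 493 to 1713 CPM in Glenn libraries. Of 10 fibroblast genes 9 rose (median 0.77), with summed levels of 1448 to 3526 and 2196 to 5285 CPM. Of 10 genes of damage-associated transitional epithelial cells 5 rose, 0 fell and 5 did not pass. Their summed level was 203 to 311 CPM in sham and 351 to 471 CPM in Glenn libraries. Of 10 endothelial genes 4 rose and 5 fell, Cdh5 among the latter (-0.25, SE 0.06, edgeR adjusted p 0.00036). Pecam1 was the 1 that did not pass (edgeR adjusted p 0.0692). It was called lower without Glenn control replicate 1, Glenn deficient replicate 2, sham control replicate 1 or sham deficient replicate 1 or 2. The changes there were -0.175 to -0.185 (edgeR adjusted p 0.0347 to 0.0486). Within groups, the r of a member with the mural list was -0.28 to 0.09 and with the fibroblast list -0.17 to 0.15, over 30 libraries. It was 0.39 to 0.85 with the general epithelial list, highest for Cldn18, and 0.27 to 0.64 with the transitional epithelial list. With the mesothelial list it was 0.12 to 0.51 and with the endothelial list -0.59 to -0.07. The part of these cells in the levels of the members was not tested.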

How the data were processed

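CD31-positive lung cells of rats were profiled by RNA sequencing in 30 libraries, made with a SMART-Seq low-input kit, per the labels' protocols. The values deposited by the authors are estimated counts, of which 13.6% were not whole, and the submitters' processing notes name FastQC, Trim Galore, Picard, STAR and Salmon with the builds mRatBN7.2 and rn7. Their order, versions, annotation and strand setting are not given in the sources used here. All 30 sample columns were used. Counts were rounded, and filterByExpr in edgeR 4.0.16 kept 16171 genes at a minimum count of 10 and a minimum total of 15. They were scaled by TMM (factors 0.938 to 1.06) and fitted by quasi-likelihood with 6 group means and the library series. Adjustment was by Benjamini and Hochberg. CPM are TMM-scaled counts per 1000000, and the SE was taken as the fitted log2 difference over the root of F. On simulated data for the averaged comparison (200 genes changed by 2-fold among 15982), 166 were recovered with 3 false calls. The simulated data held no diet or series effect, and 48.2% of genes passed in the real data, so these figures are not error rates for the results above.

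The members and gene lists were chosen with earlier results of these data known. Named genes were the 10 members, the 4 highest and 4 lowest by adjusted p of the wider type 1 list with Pdpn, Vegfa, Scnn1a and Scnn1b, preset markers, and the 8 genes closest in within-group correlation. Aerocyte genes, Krt7, Krt8, Krt18, Cldn3, Cldn7, Ehf, Grhl2, Ctsh, Slpi, Sftpd, Napsa, Lrrn4 and Upk1b were named after their values were seen. Lists for airway, general capillary, leukocyte, mesothelial, and erythroid and platelet cells were also counted. Alternatives were DESeq2 1.42.0, its size factors in edgeR, no filter, no series term, RT1-CE16 level in place of series, sex or type 2 level as a term, series A alone, only the groups compared, a replicate block and each library left out. Fits within series B and within each RT1-CE16 level were added after seeing the data. Values of 2 genes of these lists are not reported here. R 4.3.3 and matplotlib 3.10.9 were used.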

Additional observations from a re-analysis of the deposited data

Results flagged for a closer look

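Over the 10 members in 6 groups of 5 libraries, 1 of 60 sets held a library far from the others, where chance gives about 3. Scnn1g, the gamma subunit of the epithelial sodium channel, stood at 37.1 CPM in replicate 4 of the Glenn group on the deficient diet and at 19.4 to 24.0 CPM in the other 4 libraries. The gap to the nearest library was 0.739 of the range of the group, above the limit of 0.710 for 5 libraries. The same library was the highest of its group for all 10 members.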

How the results depend on the processing

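Averaged over diets, Ager, Aqp5, Akap5, Gprc5a, Scnn1g and Rtkn2 kept their call in 40 of 40 alternatives, Cldn18 and Hopx in 39 and Emp2 in 37. Lmo7 was called in 1. The count of members lower was 1 with no series term, 1 in series A alone and 0 in RT1-CE16-low libraries, where the wider type 1 list had 5 lower and Cldn18 a change of 0.27. For type 2 genes, 0 were higher in series A alone and 2 lower with the type 2 covariate, a list that enters its own fit. Members higher were 1 in RT1-CE16-low libraries on the control diet and 1 there and in series A alone on the deficient diet. On the deficient and excess diets, series A and RT1-CE16-low were the same libraries, so these settings are not separate checks there. On the excess diet, members higher were 6 with no series term, 4 with RT1-CE16 in place of series, 1 with no filter and 0 in series A alone, in RT1-CE16-low libraries or with only the groups compared. Members lower on that diet were 1 with the replicate block and 0 with no series term, in series A alone and in RT1-CE16-low libraries. Leaving out each library gave 0 to 4 higher and 0 to 2 lower there, 0 to 1 lower on the deficient diet (Hopx, -0.41 without sham replicate 1), and 0 to 1 lower for excess against control after Glenn surgery. DESeq2 gave 1 for the last. Causes were not tested.

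Some signs turned. With the type 2 covariate, the falls called for Sftpc, Abca3 and Lamp3, genes of the list that forms it, were at 0.00, 0.038 and 0.017. In RT1-CE16-low libraries, Epcam was at -0.034, Cdh1 at -0.056, Nkx2-1 at -0.14, Pecam1 at 0.094, Ptprc at 0.13, Emp2 on the control diet at 0.15, Lmo7 on the deficient diet at -0.037 and the member median for deficient against control after sham at 0.091. In series A alone, Cdh1 was at -0.019, Nkx2-1 at -0.096, Pecam1 at 0.014 and Lmo7 on the deficient diet at -0.034. Lmo7 on the excess diet (-0.01 as reported) was at 0.0020 with DESeq2, 0.0019 with its size factors, 0.17 with no series term, 0.11 with the replicate block, 0.016 with RT1-CE16 and 0.15 with the type 2 covariate. Leaving out each library gave -0.092 to 0.14 for Lmo7 there, -0.026 to 0.076 for Nkx2-1 and -0.74 to 0.011 for Ptprc. For excess against deficient after sham, Gprc5a was at -0.040 with no series term, -0.041 with only the groups compared, -0.039 in series A alone and -0.037 in RT1-CE16-low libraries. Cldn18 was at 0.0023 with the replicate block, 0.022 with the type 2 covariate and -0.065 to 0.23 with each library left out. For deficient against control after Glenn surgery, Gprc5a was at 0.044 with no series term, 0.034 with RT1-CE16 and 0.18 in RT1-CE16-high libraries, and at -0.21 to 0.049 as each library was left out.

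Replicate numbers were not taken to pair libraries, since the labels tie them to nothing shared and not every pair was over 0.1: same-numbered libraries had r of -0.275 to 0.319 (median 0.11, 39 of 75 pairs over 0.1). That 17 of 30 were closest to their own number, more than an even spread over the 5 numbers gives, is a hint from the data, not from the design, of something shared by number. By the level of Ddx3y (male above 10 CPM), 13 libraries were male and 17 female. Replicate 1 was male and RT1-CE16-low in all 6 groups, and replicate 2 female and RT1-CE16-low in all 6. The part of sex and RT1-CE16 level in this likeness was not tested. With the number as a replicate block, 7 members were higher and 2 lower averaged over diets, 5 and 0 on the control, 7 and 0 on the deficient and 2 and 1 on the excess diet.

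Genes called over the whole table moved more than 1.5 times in smaller fits. They numbered 1563 (RT1-CE16-low) and 2497 (RT1-CE16-high) against 4023 on the control diet. On the deficient diet they were 2553 (series A), 1969 (series B), 2398 and 2336 (low and high) against 4423, and on the excess diet 2270, 1960 (only the groups compared) and 2152 (low) against 3549. DESeq2 called 15, 210, 12, 63, 531 and 6 genes in the diet comparisons, against 0, 39, 2, 1, 237 and 0, and 35 against 1 for the interaction. Depth was at least 259 counts for any member in any library.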
